A study of Homo sapiens with 2 samples.

Results

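Several of the genes described here restrain cell division or are switched on when cells stop dividing, and the group is named growth arrest genes. Its members are YPEL1, YPEL2, YPEL3 and YPEL5, PNRC1, TSC22D3, CREBRF, BTG1, BTG2 and CCNG2. They were taken as every probe set that the platform's annotation assigned to exactly 1 of these 10 genes, and the genes themselves were selected on their difference between these same arrays, so that difference is given as a description and supports nothing. The rule found 27 probe sets of 9 genes, out of 54675 probe sets and 19775 named genes. BTG2, a relative of BTG1 and a target of p53, had no probe set named here and was not analysed here.

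The arrays came from MDA-MB-231, a widely used human cell line of triple-negative breast cancer, which lacks hormone receptors and amplified ERBB2. The cells had been transfected for 48 h with siRNA against KMO (siKMO, 1 array) or with a control siRNA (siCon, 1 array), and total RNA was hybridised to Affymetrix U133 Plus 2.0 arrays. KMO encodes kynurenine 3-monooxygenase, an enzyme of tryptophan breakdown. The array names in the labels carry strings usual for short hairpin constructs (shK421 for siKMO and shLUC for siCon), so the type of construct was not settled. With 1 array per condition there is no replicate, no error and no test, and every difference below describes this pair of cultures.

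Some of these genes act on the stability of RNA. BTG1 and BTG2 bind the CCR4-NOT complex and the poly(A)-binding protein and speed the removal of poly(A) tails from mRNA, which lowers the output of many transcripts. PNRC1 binds the decapping machinery and nuclear receptors. YPEL proteins are small, conserved zinc-binding proteins named after Drosophila Yippee; YPEL3 is induced by p53 and arrests growth of human cells, and YPEL5 associates with the CTLH ubiquitin ligase. TSC22D3, also called GILZ, is a leucine zipper protein induced by glucocorticoids and by FOXO factors. CREBRF binds the transcription factor CREB3 and promotes its breakdown, and CCNG2 encodes cyclin G2, an unconventional cyclin that rises in arrested cells and binds protein phosphatase 2A.

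Upstream sequences of 4 of the genes are shown because they hold a forkhead motif, the core that FOXO factors bind, or an E-box, the core bound by MYC, MLX and clock factors. Each is the 250 bases before the transcription start in RefSeq on build GRCh38.p14, written 5′ to 3′ along the gene's strand, with these motifs in capitals. TSC22D3 has 4 annotated starts in that table, and the second by position on the chromosome is shown.
BTG1, chr12:92145847-92146096, minus strand: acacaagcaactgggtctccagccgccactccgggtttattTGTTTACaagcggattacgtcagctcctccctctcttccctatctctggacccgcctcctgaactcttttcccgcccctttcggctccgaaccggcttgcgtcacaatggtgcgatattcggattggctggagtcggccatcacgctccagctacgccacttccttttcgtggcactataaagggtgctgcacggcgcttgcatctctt
TSC22D3, chrX:107717063-107717312, minus strand: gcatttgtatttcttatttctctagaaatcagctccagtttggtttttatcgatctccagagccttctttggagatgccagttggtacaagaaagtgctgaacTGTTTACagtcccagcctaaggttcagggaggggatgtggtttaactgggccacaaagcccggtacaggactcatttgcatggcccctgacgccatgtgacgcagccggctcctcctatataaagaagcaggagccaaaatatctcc
CREBRF, chr5:173056102-173056351, plus strand: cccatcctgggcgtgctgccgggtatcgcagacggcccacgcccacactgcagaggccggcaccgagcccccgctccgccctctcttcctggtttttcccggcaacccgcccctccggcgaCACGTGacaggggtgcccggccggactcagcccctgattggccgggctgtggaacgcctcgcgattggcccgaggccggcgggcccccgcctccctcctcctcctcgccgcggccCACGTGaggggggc
CCNG2, chr4:77156957-77157206, plus strand: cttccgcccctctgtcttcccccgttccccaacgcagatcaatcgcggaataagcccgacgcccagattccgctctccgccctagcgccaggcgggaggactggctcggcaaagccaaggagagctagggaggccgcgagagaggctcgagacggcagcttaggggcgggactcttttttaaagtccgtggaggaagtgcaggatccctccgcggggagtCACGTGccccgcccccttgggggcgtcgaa

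BTG1 and the TSC22D3 start shown each held the forkhead motif (GTAAACA, or TGTTTAC on the other strand), at 209 to 203 and at 147 to 141 bases before the start. Across all 35116 upstream windows of the table, 2.98% held it. Both windows also held TATAAA (or TTTATA on the other strand), at 33 to 28 bases in BTG1 and at 29 to 24 bases in TSC22D3, a motif held by 10.7% of all windows. CREBRF held 2 E-boxes (CACGTG, the same on both strands), at 129 to 124 and at 14 to 9 bases, and CCNG2 held 1 at 30 to 25 bases, against 6.34% of all windows. The CCAAT box (CCAAT, or ATTGG on the other strand) was the motif shared most widely. It matched in 6 of the 12 windows of the 9 genes with an upstream sequence, against 32% of all windows. These were 1 window each of YPEL2, YPEL3, PNRC1, CREBRF, BTG1 and BTG2, and those of PNRC1 and CREBRF each held 2 matches. None of these 12 windows held the cyclic AMP response element TGACGTCA, which 1.65% of all windows held. The motifs searched do not overlap each other in these windows, and a match in the letters is a description and not a binding site. No one of the 5 motifs was common to all of these genes.

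Levels are RMA values (robust multi-array average) in log2 units, where a difference of 1 is 2-fold, and differences are siKMO minus siCon. Each gene is represented by the probe set whose mean of the 2 arrays is highest, and it counts as measured if that mean reaches 6; weaker probe sets sit near the array's background, where differences are compressed. By this measure 8 of the 9 genes were measured, and YPEL1 was not. All 8 were lower in the siKMO array, each by at least 1.5-fold and 5 of them by at least 2-fold, with a median difference of -1.02 against 0.04 over all 8997 measured genes. Over those genes 5.41% were at least 1.5-fold lower and 1.39% at least 2-fold lower. Since the genes were selected on this difference, nothing is read from the counts. Bulk RNA cannot tell a lower level in every cell from fewer cells that express the gene.

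**Figure D1:**
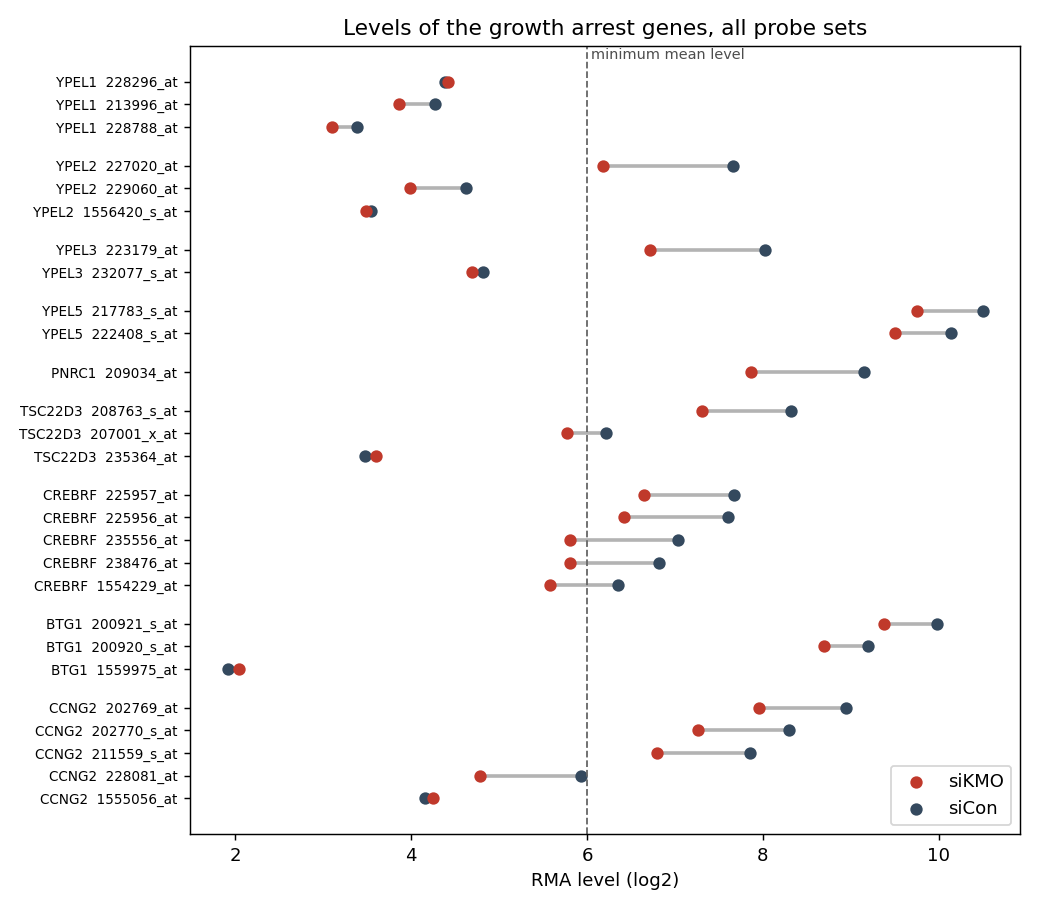
RMA level (log2) of all 27 probe sets in the siKMO array (red) and the siCon array (dark), grouped by gene and labelled with the platform's probe set name; the dashed line marks the level of 6. The 15 probe sets whose mean reaches 6 all lie lower in siKMO, and the 12 weaker ones run from -1.15 to 0.13.

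The lowest differences of the 8 were those of YPEL2 and YPEL3. YPEL2 stood at 6.19 in siKMO and 7.66 in siCon, a difference of -1.48 and a 2.78-fold lower level. Only 27 of the 8997 measured genes had a lower difference than YPEL2. Its other probe sets were weak: the first stood at 3.99 in siKMO and 4.62 in siCon, and the second at 3.48 in siKMO and 3.55 in siCon, so the YPEL2 value rests on a single probe set.

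YPEL3, the p53-induced member, stood at 6.72 in siKMO and 8.02 in siCon, a difference of -1.30 and a 2.46-fold lower level, at place 43 counted from the lowest difference. A second YPEL3 probe set lay under 6 at 4.69 in siKMO and 4.82 in siCon. YPEL3 too therefore rests on 1 probe set with signal.

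YPEL5, the CTLH-associated member, was the more strongly hybridising one, with 2 probe sets that were lower to a similar extent. The first stood at 9.75 in siKMO and 10.50 in siCon, a difference of -0.74. The second stood at 9.50 in siKMO and 10.14 in siCon, a difference of -0.64. YPEL5 was thus 1.67-fold and 1.56-fold lower, a smaller difference than those of YPEL2 and YPEL3. YPEL1 lay under 6 with all 3 probe sets, which stood at 4.42, 3.87 and 3.10 in siKMO and at 4.39, 4.27 and 3.38 in siCon, so it gave no usable difference. YPEL4, the remaining relative, was also under 6 (3.20 in siKMO and 3.60 in siCon). YPEL1 to YPEL4 are close paralogs, and whether probes of one of them also pick up another was not tested.

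PNRC1, the decapping and nuclear receptor cofactor, stood at 7.86 in siKMO and 9.15 in siCon. This is a difference of -1.29, or a 2.44-fold lower level, at place 48 from the lowest. It is the only probe set named as PNRC1 here, so its value has no second measurement beside it. PNRC2, its paralog that links decapping to nonsense-mediated decay, stood at 9.22 in siKMO and 9.17 in siCon, a difference of 0.04.

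TSC22D3, the glucocorticoid-induced leucine zipper, stood at 7.30 in siKMO and 8.32 in siCon with its strongest probe set, a difference of -1.01 and a 2.02-fold lower level. A second probe set straddled the minimum at 5.78 in siKMO and 6.21 in siCon, which with 6 in place of the siKMO level is lower by at least 0.21. The third lay at background, at 3.60 in siKMO and 3.48 in siCon. The size of the TSC22D3 difference therefore rests on 1 probe set, and the files do not say which of its transcripts each one reads.

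CREBRF, the CREB3 regulator, was lower with all 5 of its probe sets. The 2 strongest stood at 6.65 and 6.42 in siKMO and at 7.67 and 7.60 in siCon, differences of -1.02 and -1.18. The next 2 stood at 5.80 and 5.80 in siKMO, under 6, and at 7.03 and 6.82 in siCon, so they were lower by at least 1.03 and 0.82. The weakest stood at 5.58 in siKMO and 6.36 in siCon. CREBRF was thus about as much lower wherever it could be read, between 2.03-fold and 2.27-fold with the probe sets above 6 in both arrays.

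BTG1, which promotes deadenylation, had the smallest difference of the 8. Its probe sets stood at 9.37 and 8.69 in siKMO and at 9.98 and 9.20 in siCon, differences of -0.60 and -0.51. The second of these, 1.42-fold, is the 1 of the 15 measured probe sets that did not reach 1.5-fold. The third BTG1 probe set had no signal, at 2.04 in siKMO and 1.92 in siCon.

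CCNG2, cyclin G2, was measured with 3 probe sets that agreed closely. They stood at 7.95, 7.26 and 6.80 in siKMO and at 8.94, 8.29 and 7.85 in siCon. The differences were -0.99, -1.03 and -1.05, so the gene sat just short of 2-fold with the strongest probe set and just past it with the other 2. The fourth probe set, at 4.78 in siKMO and 5.93 in siCon, lay under 6 in both arrays, and the fifth stood at 4.25 in siKMO and 4.16 in siCon.

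Counted by probe set, 15 of the 27 were measured, and 14 of these 15 were at least 1.5-fold lower, against 5.04% of the 14837 measured single-gene probe sets, a count that the choice of genes again fixes. The 12 weaker probe sets ran from -1.15 to 0.13, with 8 lower and 4 higher. For the 4 genes with 2 or more measured probe sets, the differences spanned 0.06 in CCNG2, 0.10 in BTG1, 0.10 in YPEL5 and 0.21 in CREBRF. The median span over all 3777 such genes on the array was 0.15, and the 90th percentile was 0.46. Both ends of the CREBRF span, -1.23 and -1.02, came from probe sets at 5.80 in siKMO, under 6. Probe sets of a gene were read from the same RNA samples, so this agreement bears on the measurement of each gene and not on how cultures vary. Which transcripts each probe set reads is not given, and these 4 genes were selected on the same differences.

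**Figure D2:**
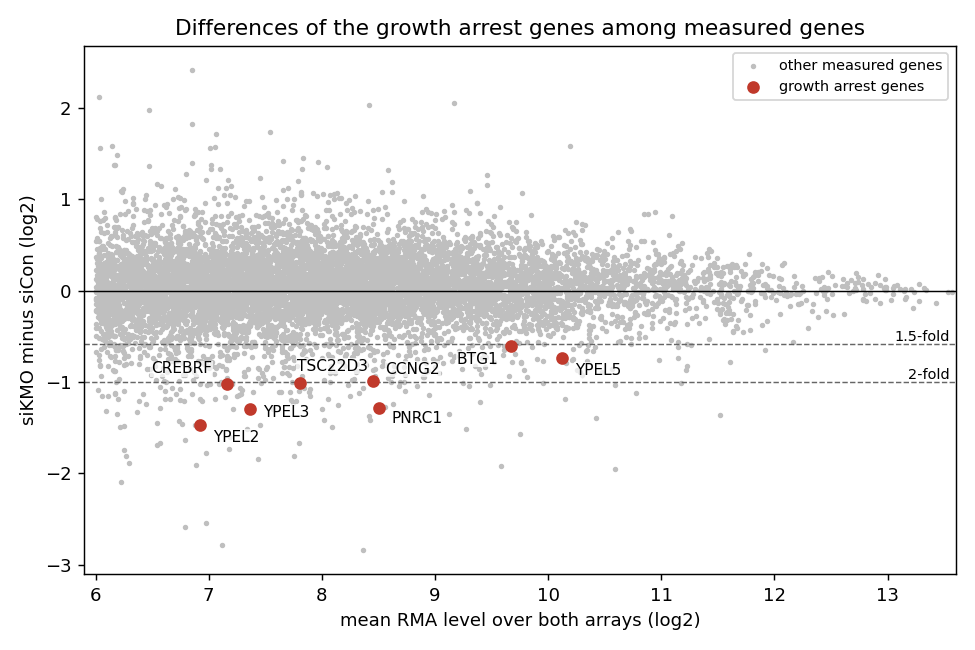
Difference between arrays (siKMO minus siCon, log2) against the mean RMA level for the 8997 measured genes (grey) and the 8 measured growth arrest genes (red). All 8 lie under the line of 1.5-fold, and the largest differences, those of YPEL2, YPEL3 and PNRC1, fall at mean levels between 6.93 and 8.51.

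The 2 smallest differences, those of BTG1 and YPEL5, came from probe sets with mean levels of 9.67 and 10.13. The other 6 had no such order: PNRC1, at a mean level of 8.51, had a larger difference than CREBRF at 7.16 and TSC22D3 at 7.81, and CCNG2 at 8.45 was just under 2-fold. Over all measured genes, large differences were rarer at high levels: 2.28% of genes with a mean level of 6 to 7 were at least 2-fold lower, against 0.684% at 9 to 10 and 0.669% at 10 or above. At 1.5-fold the shares were 7.17% at 6 to 7, 4.03% at 9 to 10 and 3.15% at 10 or above. Levels of different probe sets cannot be set against each other as amounts of RNA, so no order of abundance among the genes is given.

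The 8 measured genes lie on 8 different chromosomes, and neighbouring genes were read as well. The nearest measured protein-coding genes on either side of each, 16 in all by RefSeq gene order, ran from -0.35 to 0.41 with a median of -0.03, and 9 were lower and 7 higher. Over all measured genes, 44.1% were lower. Of the 16, 0 reached 1.5-fold, against 5.41% of all measured genes lower and 5.19% higher by that fold, so few would be counted among 16 genes in any case.  CCNG2 sits between CCNI, a related cyclin at -0.11, and CNOT6L, a deadenylase of the CCR4-NOT complex at 0.30.

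Close relatives and partners of these genes were set beside them in 10 lists, described by counts and medians over measured genes without the growth arrest genes themselves. Over all measured genes, 44.1% had a lower level in siKMO by any amount. By at least 1.5-fold 5.41% were lower and 5.19% higher, and by at least 2-fold 1.39% were lower and 0.856% higher. In the BTG/TOB family, the measured relatives of BTG1 had smaller differences. TOB1, another antiproliferative protein that binds the deadenylase, stood at 8.82 in siKMO and 9.15 in siCon, a difference of -0.33. TOB2 and BTG3 differed by -0.04 and 0.10, and BTG4 lay under 6. None of these 3 measured relatives reached 1.5-fold.

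The RNA decay machinery through which BTG1 and PNRC1 act had no gene past 1.5-fold. Of 14 measured subunits and partners of the CCR4-NOT complex and related deadenylases, 4 were lower and 10 higher, with a median of 0.10. CNOT8, a catalytic subunit that BTG proteins bind, differed by -0.49, whereas its paralog CNOT7 differed by 0.26 and the ligase subunit CNOT4 by 0.57. Of 10 measured decapping factors, 1 was lower and 9 were higher, with a median of 0.15 and a range of -0.13 to 0.28. These medians lay near that of all measured genes, 0.04.

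The CTLH ubiquitin ligase, with which YPEL5 associates, was measured with 9 subunits, of which 7 were lower and 2 higher, with a median of -0.17. MKLN1 (muskelin) stood at 7.76 in siKMO and 8.37 in siCon, a difference of -0.61, but its 4 measured probe sets ran from -0.62 to 0.20. RANBP9, the scaffold, differed by -0.44 and by -0.45 to -0.36 over 3 probe sets. MAEA, one of the catalytic RING subunits, went the other way at 0.41.

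Among the relatives of TSC22D3, TSC22D1 stood at 9.84 in siKMO and 10.73 in siCon, a difference of -0.89, although its 2 measured probe sets ran from -0.89 to 0.48, so its direction was not settled. TSC22D2 differed by -0.40, and TSC22D4 lay under 6. NRBP1, a pseudokinase that binds TSC22D proteins, differed by 0.38. The 6 measured genes of this list had a median of -0.12.

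Genes that glucocorticoids induce, as they do TSC22D3, went both ways. KLF9, a Kruppel-like repressor, stood at 5.82 in siKMO and 7.07 in siCon, lower by at least 1.07 with 6 in place of the siKMO level. ERRFI1, an inhibitor of the EGF receptor, differed by -0.78. FKBP5, a chaperone partner that is a standard marker of glucocorticoid action, was higher, at 8.59 in siKMO and 7.82 in siCon, a difference of 0.76, and the kinase SGK1 differed by 0.73. NR3C1, the glucocorticoid receptor itself, differed by -0.50 and by -0.57 to -0.39 over 5 probe sets. Of the 9 measured genes, the receptor included, 6 were lower and 3 higher, with a median of -0.41, against 44.1% lower over all measured genes. By at least 1.5-fold 2 were lower and 2 higher, against 5.41% and 5.19% of all measured genes.

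FOXO factors and the genes they are known to induce, a list that also holds BTG1, TSC22D3, YPEL3 and CCNG2, were mostly lower. Of the 17 other measured genes, 15 were lower and 2 higher, with a median of -0.31, against 44.1% lower over all measured genes. By at least 1.5-fold 5 were lower and 0 higher, against 5.41% and 5.19% of all measured genes. TXNIP, the thioredoxin-binding arrestin, stood at 10.84 in siKMO and 12.21 in siCon, a difference of -1.37. The receptor ERBB3 was lower by at least 0.73, with its siKMO level of 5.61 under 6. BCL6, a transcriptional repressor, differed by -0.95 (-0.95 to -0.58 over 3 probe sets). CITED2, a cofactor of CBP, differed by -0.86 (-0.86 to -0.66 over 2), and BNIP3, a mitophagy receptor, by -0.83 (-0.83 to -0.78 over 2). Of the factors themselves, FOXO3 differed by -0.10, FOXO1 by -0.03 and FOXO6 by -0.55, while FOXO4 lay under 6. FOXO6 was read by 1 measured probe set close to the minimum, at 6.13 in siKMO and 6.68 in siCon. TXNIP and ERBB3 also respond to other regulators, and the list was written with earlier results of these arrays known.

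**Figure D3:**
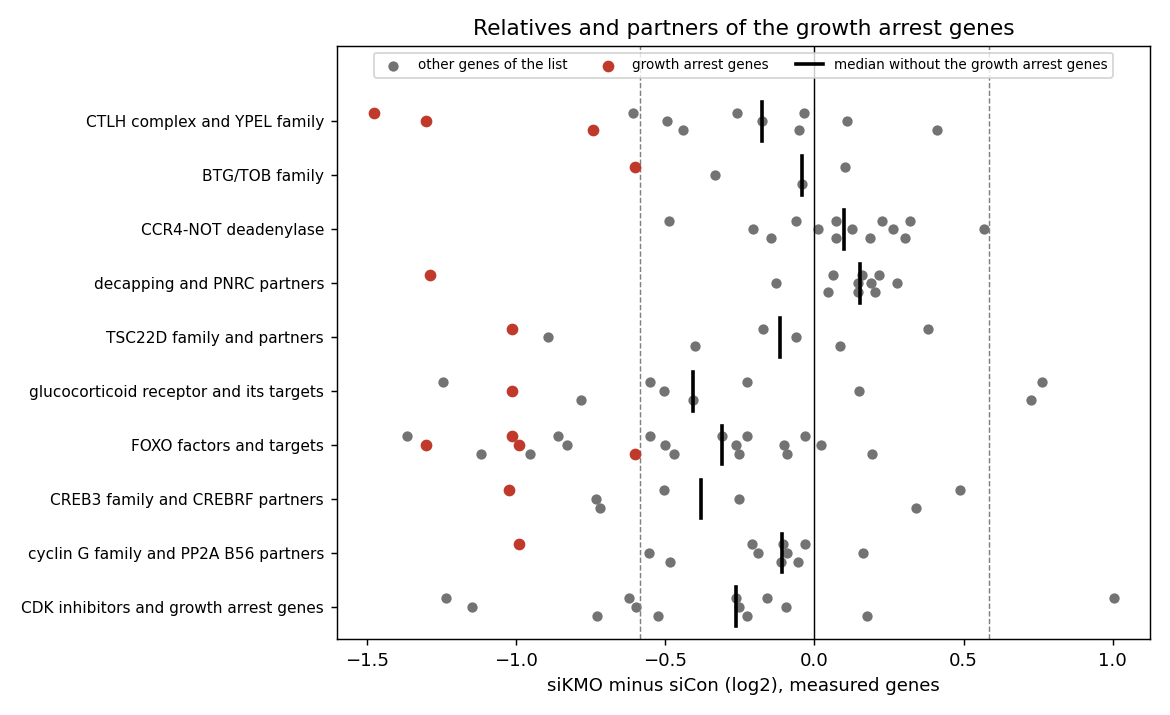
Difference (siKMO minus siCon, log2) of each measured gene in the 10 lists of relatives and partners; red points are growth arrest genes, grey points the other genes of a list, the black bar their median, and dashed lines 1.5-fold. The black bars run from -0.41 in the glucocorticoid list to 0.15 in the decapping list.

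In the CREB3 list, CREB3, the factor that CREBRF restrains, stood at 8.81 in siKMO and 8.47 in siCon, a difference of 0.34. Its relative CREB3L2 differed by 0.49 and CREB3L1 by -0.72. CREBZF, a further leucine zipper cofactor, differed by -0.73 with its strongest probe set, but its 4 measured probe sets ran from -0.73 to 0.12. Of 6 measured genes 4 were lower and 2 higher, with a median of -0.38, against 44.1% lower over all measured genes. The 4 lower were CREBZF, CREB3L1, HERPUD1 and NR3C1, the last also counted in the glucocorticoid list. The 2 higher were CREB3 and CREB3L2.

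The relatives and partners of CCNG2 had smaller differences than CCNG2. CCNG1, cyclin G1, a p53 target, stood at 9.70 in siKMO and 9.91 in siCon, a difference of -0.21, and CCNI differed by -0.11. Among the B56 subunits of protein phosphatase 2A, which cyclin G2 binds, PPP2R5A differed by -0.55 and the others less. Of 10 measured genes 9 were lower, against 44.1% of all measured genes, 0 of them by 1.5-fold, with a median of -0.11.

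Other genes of arrest, the inhibitors of cyclin-dependent kinases and related factors, were lower in 11 of 13 measured cases, 5 by at least 1.5-fold, with a median of -0.26. The shares over all measured genes were 44.1% lower by any amount and 5.41% lower by at least 1.5-fold. CDKN1B, GADD45A and RBL2 are also counted in the FOXO list, so these lists overlap. CDKN1C, the kinase inhibitor p57, stood at 7.13 in siKMO and 8.37 in siCon, a difference of -1.23 and -1.25 to -1.18 over 4 probe sets. MXI1 and MXD1, antagonists of MYC, differed by -1.15 and -0.60, and CDKN1A, the inhibitor p21, by -0.73. MXD1 was read by 1 measured probe set close to the minimum, at 6.13 in siKMO and 6.73 in siCon. GADD45B, a stress-induced arrest protein, differed by -0.62 (-0.62 to -0.49 over 3 probe sets). CDKN1B, the inhibitor p27, differed by -0.26. RBL1, the pocket protein p107 and a target of E2F in dividing cells, was the only one at least 1.5-fold higher, at 7.19 in siKMO and 6.18 in siCon.

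Checks of the arrays gave these values. For comparison, 44.1% of all measured genes were lower in siKMO. By at least 1.5-fold 5.41% were lower and 5.19% higher, and 1.39% were at least 2-fold lower. The 3 KMO probe sets lay at 2.35 to 2.92 in siKMO and 2.11 to 2.95 in siCon, at background in both, so they do not check the labels. Of 13 listed markers of the line and of mesenchymal cells, 11 were measured, with a median difference of -0.09, and 2 were lower and 1 higher by at least 1.5-fold. VIM, CD44 and AXL stood between 11.31 and 12.96 in siKMO and between 11.43 and 12.90 in siCon. The cadherin CDH11 differed by -0.95 (-1.34 to -0.79 over 3 probe sets) and LOX by -0.84 (-0.84 to -0.31 over 2). SNAI2 differed by 0.69, and SPARC and CDH2 lay under 6. Of 10 listed hormone receptor and luminal markers, ESR1, PGR and FOXA1 lay under 6 in both arrays, and of the 6 measured ones 5 were lower in siKMO, 3 of them by at least 2-fold, with a median of -0.70. AGR2, a secreted luminal marker, stood at 6.96 in siKMO and 8.63 in siCon. SPDEF differed by -1.19 (-1.19 to -0.64 over 3 probe sets), with its siKMO level of 6.06 close to the minimum. ERBB3 was lower by at least 0.73 with 6 in place of its siKMO level. Its count among the 3 past 2-fold thus rests on a level under 6. ERBB2 differed by -0.07 and GATA3 by 0.34. All 8 measured epithelial markers of 12 listed were lower in siKMO, 4 by at least 1.5-fold and 3 by at least 2-fold, with a median of -0.72. CDH1, E-cadherin, which this line is usually described as lacking, stood at 8.62 in siKMO and 10.54 in siCon, and OCLN and CLDN7 differed by -1.37 and -1.11. By their strongest probe sets, all 8 measured epithelial markers and 5 of the 6 measured luminal markers were thus lower. So were the measured growth arrest genes, and any link between these groups was not tested.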

How the data were processed

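The deposited values are log2 levels per probe set that the authors made by robust multi-array averaging, per the labels, with Affymetrix Expression Console named in the submitters' processing notes. Neither its version nor the set of arrays it processed as a group is given in the sources used here. This method equalises the distributions of the arrays (medians of 4.43 in siKMO and 4.44 in siCon), so a shift of all transcripts cannot be seen, and it gives no detection call. Precision is limited by the number of arrays.

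Gene names came from the platform's annotation and were brought up to date through gene identifiers in RefSeq (GRCh38.p14); probe sets with several genes named none. Differences and counts were computed in Python 3.11.15 with pandas 2.3.3, and the counting was tested on simulated data. No test was possible with 1 array per group. The growth arrest genes, the lists and the thresholds were chosen with earlier results of these data known. Named genes were the growth arrest genes, their paralogs, and genes of the lists, where those past 1.5-fold, or otherwise up to 3 with the largest differences, could be named but not all were; neighbours, array checks and the further list genes with smaller differences were named after their values were seen. Alternatives covered the summary of probe sets, the probe set type, the minimum level, a floor and the centring.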

Additional observations from a re-analysis of the deposited data

How the results depend on the processing

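With levels under 6 set to 6, with differences centred on the median of the measured genes, with no minimum level and with a minimum of 7, the counts of growth arrest genes past each fold stayed within 1.5 times those reported, and their median difference ran from -1.06 to -1.01. Centring put CCNG2 past 2-fold, at -1.03. When all probe sets of each gene were averaged, which mixes in those without signal, 6 genes were measured, 5 were at least 1.5-fold lower (4.20% of all measured genes under that setting) and 2 at least 2-fold lower (1.01%); YPEL2, YPEL3 and TSC22D3 then differed by -0.73, -0.71 and -0.44 and BTG1 by -0.33. Leaving out the probe sets named _x_at or _s_at, 5 of 8 genes with a probe set were lower, all 5 by at least 1.5-fold (5.66% of all measured genes under that setting); no YPEL5 probe set was left, and TSC22D3 and BTG1 were read by probe sets with mean levels of 3.54 and 1.98, at 0.12 and 0.13, which turned their direction. The calls on TSC22D3, BTG1 and YPEL5 thus rest on probe sets of that type. No paired analysis was possible because each group has 1 array. Signal over background limits YPEL1 and the weaker probe sets, and the spread between cultures is unknown.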
